A study of Mus musculus with 4 samples.

Results

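Mitosis needs a set of genes that cells transcribe together in G2 and M phase of the cell cycle, and 40 of them are described here: cyclins, kinases, kinetochore proteins, spindle motors, checkpoint proteins and cytokinesis factors. The list was given by gene symbol, and every probe set that the platform annotation assigned to 1 of these genes alone was taken. In all 82 probe sets of 39 genes were found, out of 18193 genes with a probe set. Ccnb1 had no probe set of its own in the annotation used and was not analysed here. A probe set shared by Foxm1 with Tex52 and Pebp1 was also left out.

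The samples were 4 preparations of mouse fibroblast RNA, each on 1 array, on a C57BL/6 background per the labels. In the in vitro pair, RBP-Jk was deleted in cultured fibroblasts by an adenovirus carrying Cre recombinase, and the control cells received an adenovirus carrying GFP. In the in vivo pair, the deleted fibroblasts came from mice with a ColI Cre transgene and loxP-flanked RBP alleles, and the control fibroblasts from mice with the loxP-flanked alleles and no Cre. ColI denotes the promoter of a type I collagen gene, which is active in fibroblasts and in other collagen-producing mesenchymal cells. RBP-Jk, encoded by Rbpj and also called CSL, is the DNA-binding partner of Notch receptors in the nucleus. The age and number of the animals, the passage of the cells and any culture of the in vivo fibroblasts are not stated in those labels. With 1 array per group, a difference within a pair has no replicate check and no p-value, and the number of arrays limits the precision.

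Entry into mitosis is driven by cyclin A2 and B-type cyclins bound to the kinase CDK1. Aurora and Polo-like kinases then build the spindle, kinetochores tie chromosomes to its microtubules, and the spindle checkpoint holds back the anaphase-promoting complex until every chromosome is attached. Resting fibroblasts keep these genes repressed through the DREAM complex, and dividing cells switch them on through B-MYB, FOXM1 and the MuvB core, so their summed transcript level is widely read as a measure of proliferation. In RNA from a mixed preparation, fewer cells of a dividing type and less RNA per cell cannot be told apart.

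The RNA and arrays differed in ways that touch these values. Rbpj itself read lower in the deleted sample on 2 of its 3 probe sets in vitro (log2 differences of -1.34, -1.11 and 0.10) and on all 3 in vivo (-0.83, -0.49 and -0.10), and the position of these probe sets relative to the deleted part was not used. The 3' signal of the Gapdh control probe sets exceeded the 5' signal by 0.04 (log2) on the deleted in vitro array against 1.01 on its control. The same gap was 0.12 against 0.15 for the in vivo arrays, so the 3' bias was uneven within the in vitro pair for Gapdh. In vitro the gap was also smaller on the deleted array for Actb (0.39 against 1.09) and Pcx (1.94 against 3.27), but larger for Tfrc (1.47 against 0.93). The bioB spike-in was brighter on both in vitro arrays (8.34 deleted, 8.42 control) than on the in vivo arrays (7.08 deleted, 7.05 control). No batch is named in the labels, and the part of this spike-in gap in differences between the systems was not tested. Fibroblast markers were bright in every sample: Col1a1, a chain of type I collagen, read 13.72 and 13.55 (deleted, control) in vitro and 13.72 and 13.57 in vivo on the log2 scale.

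In fibroblasts deleted of Rbpj in vivo, all 39 measured mitosis genes read higher than in the control, and the differences lay close together. The median log2 difference, deleted minus control, was 0.88 (1.84-fold), from 0.12 for Cdc25c to 1.59 for Ttk. Over all 10916 genes analysed, those with a mean level above log2 5.28, the median was -0.03, with 46.4% of genes higher and 53.6% lower. At least 2-fold higher were 12 of the 39 members, against 2.81% of genes analysed, and no member was 2-fold lower, against 3.81%. The spread over members (SD 0.27) was smaller than that over all genes (SD 0.55), and 29 members lay in the top 5% of all in vivo differences. Each member was above the level cutoff on every array, so none passed through its high array alone. The 2-fold line lay near the upper quartile of the members (1.01), with genes close to it on both sides. Between 1.0 and 1.1 lay 7 members (Foxm1, Bub1, Cenpe, Prc1, Racgap1, Ect2 and Top2a). Between 0.9 and 1.0 lay another 7 (Ccna2, Cdk1, Pbk, Mad2l1, Ube2c, Cenpa and Tpx2). These 14 genes are not separated by any measured error.

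In the in vitro pair the same genes showed no common direction. Of the 39 members 18 were higher and 21 lower in the deleted culture, where 42.5% of all genes were higher and 57.5% lower. Their median difference was -0.02 beside -0.06 for all genes, with a range of -0.74 for Cenpa to 0.89 for Kif18b. None was 2-fold higher or lower, against 0.788% and 1.15% of all genes. The in vivo difference exceeded the in vitro difference in 38 of 39 members, by a median of 0.83, whereas 52.6% of all genes had the larger value in vivo. Kif18b, at 0.88 in vivo and 0.89 in vitro, was the exception. With 1 array per group this contrast between systems was not tested.

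**Figure D1:**
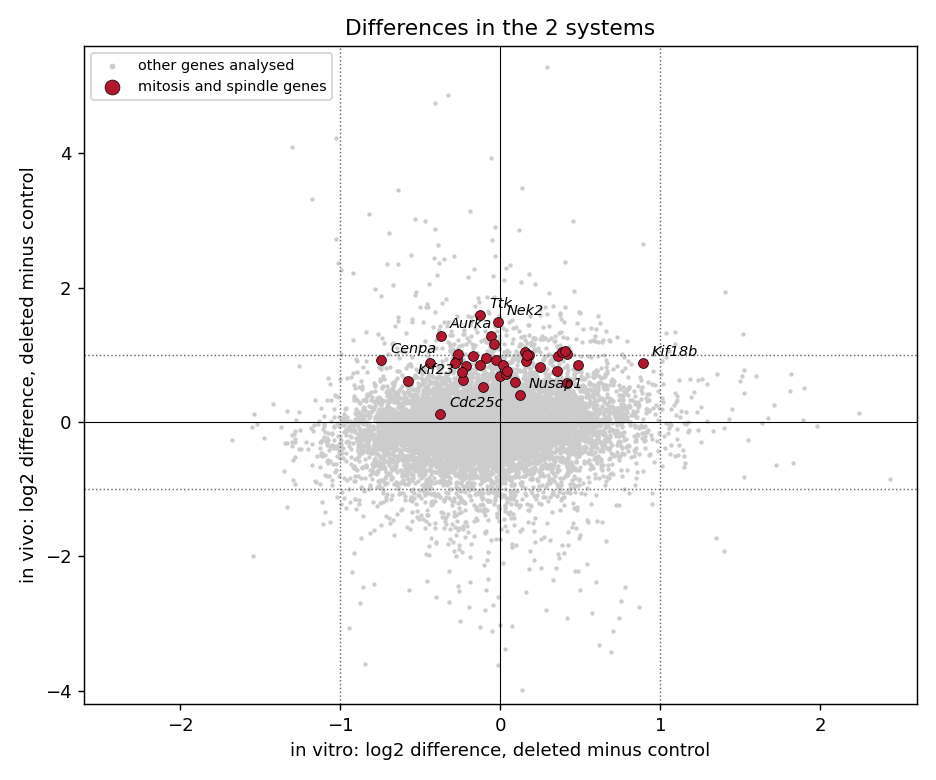
Each point is 1 gene, placed by its log2 difference (deleted minus control) in vitro on the horizontal axis and in vivo on the vertical axis. Red points are the 39 mitosis and spindle genes, grey points the genes analysed, and dotted lines mark 2-fold. The red points lie on both sides of 0 in vitro and between 0.12 and 1.59 in vivo.

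Because the members differed together in vivo, their promoters are shown next. Cell cycle genes of G2 and M phase are known for a cell cycle genes homology region (CHR), to which the MuvB core binds, and for CCAAT boxes, the sites of the factor NF-Y, a short distance upstream. RefSeq promoter windows (build GRCm38.p6, 250 bases before to 50 after the annotated start) were found for 33 of the 40 genes. The CHR letters TTTGAA stood on either strand in the window of 24 genes (72.7%), and the letters CCAAT in 25 (75.8%). Among the 8828 genes analysed with a window, 1214 held TTTGAA and 3756 (42.5%) held CCAAT. Both together were present in 63.6% of member windows and in 5.38% of those of genes analysed. The windows below belong to the 5 members with the largest in vivo difference among those with both motifs. Capitals mark TTTGAA and CCAAT, or TTCAAA and ATTGG where the match is on the other strand, and the start site follows base 250. Ttk lies at chr9:83834439-83834738 (plus strand), Aurka at chr2:172370521-172370820 (minus), Plk1 at chr7:122159185-122159484 (plus), Ect2 at chr3:27153829-27154128 (minus) and Racgap1 at chr15:99651607-99651906 (minus).
Ttk: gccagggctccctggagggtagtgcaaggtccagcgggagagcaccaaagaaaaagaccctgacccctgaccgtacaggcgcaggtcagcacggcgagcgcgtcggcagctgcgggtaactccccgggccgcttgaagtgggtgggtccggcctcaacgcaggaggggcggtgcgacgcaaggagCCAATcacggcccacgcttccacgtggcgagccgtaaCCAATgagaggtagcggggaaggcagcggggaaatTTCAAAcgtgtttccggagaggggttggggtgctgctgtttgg
Aurka: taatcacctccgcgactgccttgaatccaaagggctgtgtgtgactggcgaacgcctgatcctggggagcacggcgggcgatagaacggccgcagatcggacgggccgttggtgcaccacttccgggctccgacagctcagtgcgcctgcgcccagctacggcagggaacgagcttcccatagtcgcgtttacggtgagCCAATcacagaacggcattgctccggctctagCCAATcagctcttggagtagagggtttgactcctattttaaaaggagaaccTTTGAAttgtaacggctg
Plk1: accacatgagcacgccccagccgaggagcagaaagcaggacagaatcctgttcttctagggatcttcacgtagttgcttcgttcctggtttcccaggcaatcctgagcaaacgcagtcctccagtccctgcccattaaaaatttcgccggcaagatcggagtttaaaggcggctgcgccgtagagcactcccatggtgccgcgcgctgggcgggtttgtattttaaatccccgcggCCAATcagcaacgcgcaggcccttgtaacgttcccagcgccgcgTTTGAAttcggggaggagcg
Ect2: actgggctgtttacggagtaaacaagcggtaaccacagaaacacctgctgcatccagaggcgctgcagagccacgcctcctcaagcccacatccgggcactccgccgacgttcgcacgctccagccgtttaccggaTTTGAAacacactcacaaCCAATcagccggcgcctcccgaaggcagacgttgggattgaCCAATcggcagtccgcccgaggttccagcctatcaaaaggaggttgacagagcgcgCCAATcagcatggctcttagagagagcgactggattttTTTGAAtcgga
Racgap1: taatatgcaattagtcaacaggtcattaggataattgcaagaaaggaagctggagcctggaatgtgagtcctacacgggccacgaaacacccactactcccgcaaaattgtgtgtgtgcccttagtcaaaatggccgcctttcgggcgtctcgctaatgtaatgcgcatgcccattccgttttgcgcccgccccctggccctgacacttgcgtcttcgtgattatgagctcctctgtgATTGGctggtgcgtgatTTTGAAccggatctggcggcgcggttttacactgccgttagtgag

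In the 24 genes with TTTGAA its 30 matches had a median position of 3.5 bases after the start, and 25 of them began no more than 100 bases before it. The 58 CCAAT matches had a median position of -66.0. A second CHR form, TTTAAA, which reads the same on both strands, was in 9 member windows (27.3%), against 10.6% of genes analysed. The E2F site was searched on both strands in 4 forms. The usual form is TTCCCGC, and the others searched were TTGGCGC, then also the form TTCGCGC, and finally the form TTGCCGC. An E2F form was in 5 member windows (15.2%), against 19.8% of genes analysed. A list of further mitosis genes, with 61 windows, held TTTGAA in 55.7%, CCAAT in 65.6% and both in 42.6%. The E2F share of that list was 37.7%, so the low share of the members was not shared by these other mitosis genes. In the list of DNA replication and S phase genes the order was the other way: 17.1% of 41 windows held TTTGAA and 61% held an E2F form. Among members the in vivo differences overlapped: those of the 24 with TTTGAA ran from 0.52 to 1.59 with a median of 0.86, and those of the 8 measured members without it from 0.40 to 1.49 with a median of 0.93. In the member windows 3 pairs of matches overlapped. A match gives the letters in the window and not binding, and these shares were not tested.

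**Figure D2:**
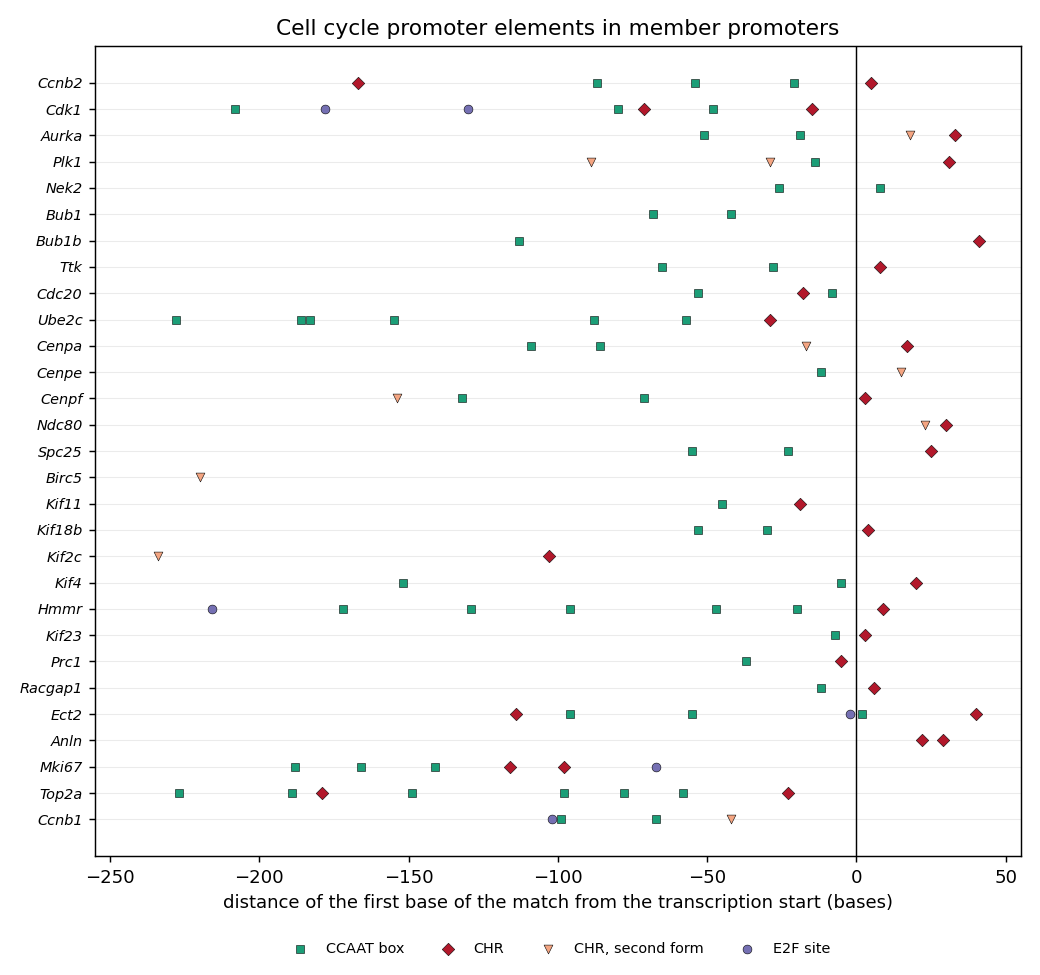
Each row is the promoter window of 1 member gene that held at least 1 motif, and each symbol is 1 match, placed by its first base relative to the transcription start in bases. CHR matches (diamonds) gather around the start, with a median position of 3.5, and CCAAT matches (squares) lie upstream, with a median of -66.0.

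The genes of the entry switch were higher in vivo, but Cdc25c least of all. Cdk1, the catalytic kinase of mitotic entry, read log2 10.68 in the deleted and 9.70 in the control sample in vivo, and 8.72 and 8.89 in vitro. Ccna2, encoding cyclin A2, read 10.01 and 9.08 in vivo and 8.69 and 8.72 in vitro (deleted, control). For both genes the deleted in vivo array stood alone at the top, and the in vitro arrays lay within 0.2 of each other. The second Ccna2 probe set gave a larger difference in both systems, 1.27 in vivo and 0.69 in vitro. Ccnb2, a B-type cyclin, was 1.61-fold higher in vivo, at 9.34 against 8.65, and read 7.56 on both in vitro arrays. Foxm1, the forkhead factor that activates many G2 and M genes, was 2.02-fold higher, at 8.42 against 7.40 in vivo and 7.39 against 6.97 in vitro. Cdc25c, the phosphatase that activates CDK1, differed by 0.12 in vivo (7.03 in the deleted and 6.91 in the control sample), and its second probe set by 0.19. Cdc25c thus lay at percentile 66.9 of all genes in vivo, while its level was above that of the in vitro samples (5.50 deleted, 5.87 control).

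All 6 mitotic kinases were higher in vivo, with a median of 1.22 and 4 of 6 at least 2-fold higher. These values rest on each gene's brightest probe set: with the median of a gene's probe sets, dim ones included, the kinase median was 0.89 and 2 of 6 reached 2-fold. Nek2, a centrosome kinase, read 7.63 in the deleted and 6.14 in the control sample in vivo (2.80-fold), and 6.05 and 6.06 in vitro. Aurka, which matures centrosomes and the spindle poles, read 9.30 and 8.02 in vivo and 7.24 and 7.62 in vitro (deleted, control). Aurkb, the kinase of the chromosomal passenger complex, read 7.80 and 6.52 in vivo and 6.04 and 6.10 in vitro. The second Nek2 probe set above the cutoff gave a smaller in vivo difference, 0.78, and both dim ones lay near 0 or below (-0.01 and -0.21). With the brightest probe sets of these 3 genes, the deleted in vivo sample exceeded each of the other samples by more than 1 log2 unit. Plk1, the Polo-like kinase of mitotic entry and bipolar spindles, was 2.24-fold higher in vivo (9.73 against 8.57), with in vitro values of 7.40 and 7.44. Pbk, a mitotic kinase also called TOPK, was at 0.95, and Melk, a leucine zipper kinase of proliferating cells, at 0.82. In vitro, 5 of the 6 were lower and Melk was higher (0.25).

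Among checkpoint and exit genes Ttk stood apart. Ttk, which encodes the checkpoint kinase MPS1, read 7.85 in the deleted and 6.26 in the control sample in vivo, and 6.16 and 6.29 in vitro. The other Ttk probe set lay below the cutoff and differed by 0.12. With the brightest probe sets Ttk, at 3.02-fold, was the only member over 3-fold, and the in vivo control was within 0.2 of both in vitro arrays. Bub1, a checkpoint kinase at kinetochores, read 8.59 and 7.58 in vivo and 7.26 and 7.08 in vitro (deleted, control). Mad2l1, the checkpoint protein that binds CDC20, was 1.98-fold higher in vivo, at 9.22 against 8.23. Bub1b, which encodes the checkpoint protein BUBR1, was 1.43-fold higher (8.69 against 8.17), and a second probe set gave 0.89 on the log2 scale. For exit from mitosis, Cdc20, the activator of the anaphase-promoting complex, was at 0.62 in vivo, with 0.90 and 0.30 on its other probe sets. Ube2c, the ubiquitin-conjugating enzyme of that complex, was at 0.93, reading 10.15 in the deleted and 9.22 in the control sample. Both exit genes were lower in the deleted sample in vitro, Cdc20 by -0.23 and Ube2c by -0.27.

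All 7 centromere and kinetochore genes were higher in vivo (median 0.84, range 0.60 to 1.02), and 5 of 7 were lower in vitro. Cenpe, a kinetochore kinesin, was 2.03-fold higher in vivo, at 8.72 against 7.70, and read 6.71 and 6.98 in vitro (deleted, control). The NDC80 complex, which holds the microtubule, was represented by Ndc80 (0.84), Nuf2 (0.60) and Spc25 (0.84). In vitro these 3 subunits differed by 0.02, 0.09 and -0.13. Cenpf, a large kinetochore protein, was at 0.84 in vivo, and Birc5, which encodes survivin of the chromosomal passenger complex, at 0.88 (10.21 against 9.33). Cenpa, the histone H3 variant that marks centromeres, had opposite signs in the 2 systems. It read 9.23 in the deleted and 8.31 in the control sample in vivo, and 6.99 and 7.73 in vitro, so that it was 1.90-fold higher in vivo and 1.68-fold lower in vitro.

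None of the 7 genes for spindle motors and microtubule binders reached 2-fold in vivo with its brightest probe set, though all were higher (median 0.84). With the median of a gene's probe sets, dim ones included, their median was 0.74 and 2 of 7 reached 2-fold. The contrast with the kinases in 2-fold counts thus depended on the choice of probe set. Tpx2, which activates Aurora A on the spindle, read 8.67 and 7.76 in vivo and 7.13 and 6.97 in vitro (deleted, control). Kif11, the kinesin that pushes spindle poles apart, read 7.05 and 6.20 in vivo and 6.04 and 5.56 in vitro. Kif2c, a microtubule-depolymerizing kinesin, was at 0.88 in vivo and -0.28 in vitro, and the chromokinesin Kif4 at 0.71 and 0.04. Kif18b, a plus-end kinesin that shortens astral microtubules, had the largest in vitro excess among the members' brightest probe sets. It read 7.52 in the deleted and 6.63 in the control culture (1.85-fold), and 8.15 and 7.28 in vivo. Kif18b lay at percentile 98.8 of all genes in vitro and 96.3 in vivo. Nusap1, a spindle-associated protein, was only 1.32-fold higher in vivo (7.53 against 7.14). Hmmr, a microtubule-binding protein of the spindle also known as a hyaluronan receptor, was at 0.76, and its 4 probe sets above the cutoff ranged from 0.30 to 1.68.

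Midzone and cytokinesis genes were higher in vivo in 6 of 6 cases (median 0.90) and in vitro in 5 of 6 (median 0.37). Prc1, which bundles microtubules of the spindle midzone, read 9.61 and 8.57 in vivo and 8.54 and 8.38 in vitro (deleted, control). Racgap1, a subunit of centralspindlin, was 2.06-fold higher in vivo (8.97 against 7.92) and read 7.25 and 6.86 in vitro. Ect2, the exchange factor that activates RhoA at the cleavage site, was 2.07-fold higher in vivo (6.68 against 5.63) and read 5.84 and 5.44 in vitro. With their brightest probe sets all 3 genes were about 2-fold higher in vivo and from 0.16 to 0.40 higher in vitro on the log2 scale. The second Racgap1 probe set above the cutoff was higher in vivo (0.94) but lower in vitro (-0.23). That of Prc1 was at 1.08 in vivo and 0.46 in vitro. The furrow protein anillin, from Anln, was at 0.76 in vivo and 0.35 in vitro, and the midzone kinesin Kif20a at 0.58 and 0.42. Kif23, the other centralspindlin subunit, had opposite signs, at 0.61 in vivo (8.90 against 8.29) and -0.57 in vitro (6.75 against 7.33). Of the chromosome proteins, Top2a, the topoisomerase that untangles sister chromatids, was 2.00-fold higher in vivo, at 10.52 against 9.52. Top2a read 9.17 and 9.002 in vitro. Its second probe set above the cutoff was at 0.54 in vivo and -0.08 in vitro. Mki67, the source of the Ki-67 proliferation marker, was at 0.74 in vivo (10.22 against 9.47) and -0.24 in vitro (8.98 against 9.22).

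**Figure D3:**
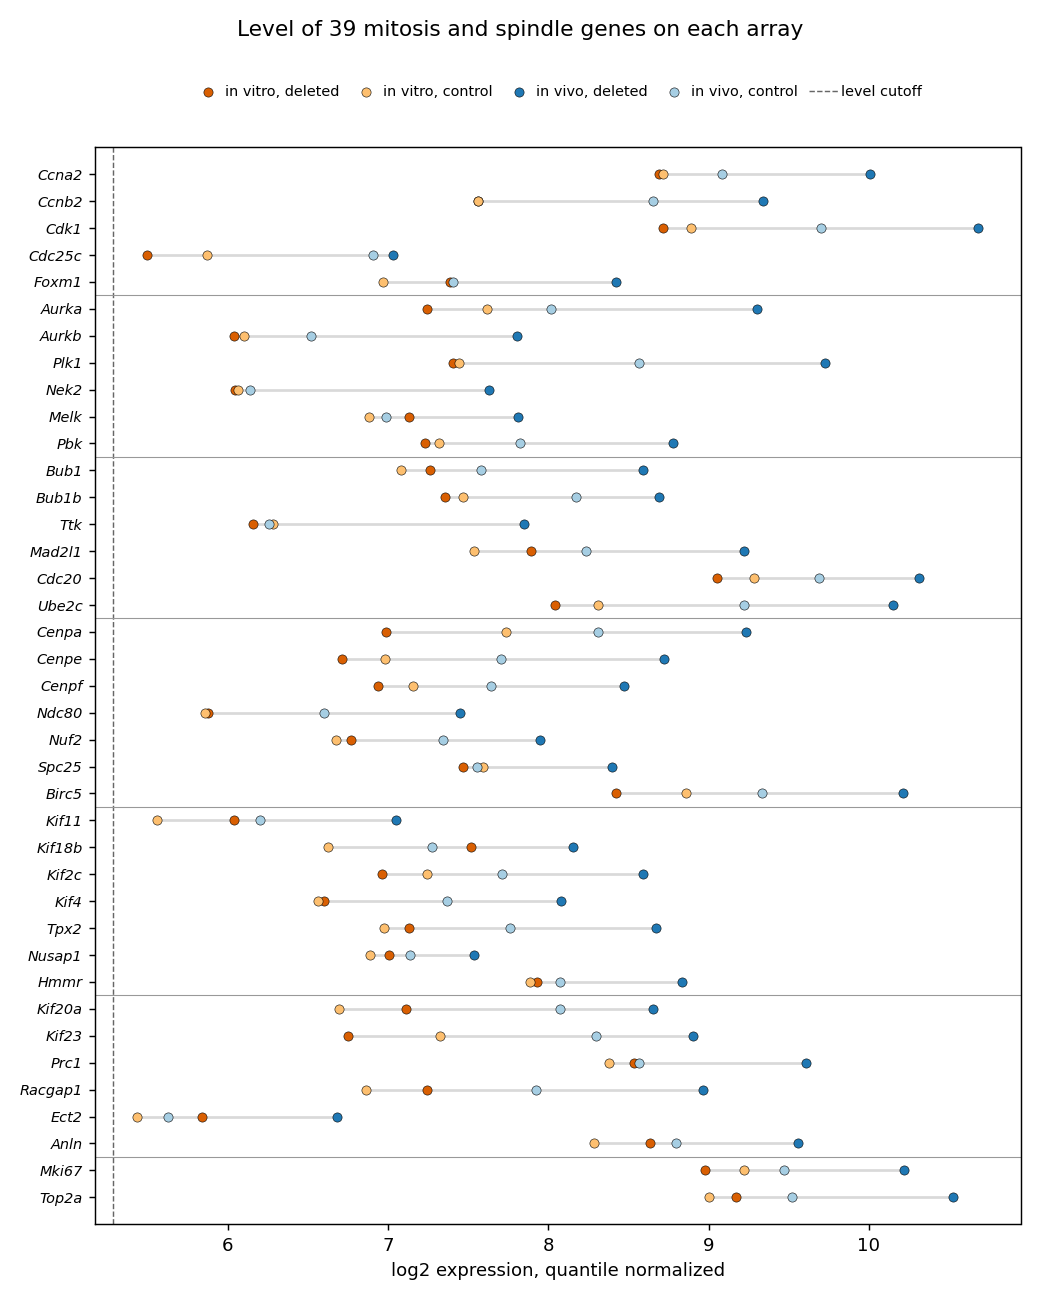
Each row is 1 gene, grouped by role between the grey lines, and each point is its log2 expression on 1 array. The dashed line is the level cutoff at 5.28. The deleted in vivo array is the rightmost point in all 39 rows.

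Across the 4 arrays the top of the order was shared by all members and the bottom was not. The deleted in vivo array was the highest for 39 of 39 genes, where 28.6% of all genes analysed had their highest value there. The lowest value fell on the deleted in vitro array for 21 members and on the in vitro control for 18. In vivo the control itself was above the in vitro control for 37 of 39 members, by a median of 0.51, where 50.4% of all genes were higher and the median was 0.01. Ttk and Spc25 were the 2 members without that step, at -0.03 and -0.04. The 2 controls also differed in the bioB spike-in and in 3' signal. The 3' excess over 5' was larger on the in vitro control for Gapdh (1.01 against 0.15), Actb (1.09 against 0.37) and Pcx (3.27 against 1.09). For Tfrc it was smaller (0.93 against 1.25). The labels name an adenovirus for the in vitro control alone. The part of each of these in this step was not tested.

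Probe sets of the same gene gave a check within an array, though not a replicate. Of the 82 member probe sets 59 lay above the level cutoff, and all 59 were higher in the deleted in vivo sample. The other 23 lay below the cutoff, where 19 were higher in vivo with a median of 0.08 and a range of -0.21 to 0.84. In vitro, 29 of the 59 were higher and 30 lower. Of 14 genes with several probe sets above the cutoff, 7 had probe sets of opposite sign in vitro and 0 had them in vivo. The 3 probe sets of Kif2c spanned -0.28 to 0.58 in vitro, and in vivo 0.88 to 1.46. Those of Kif11 spanned -0.21 to 0.60 in vitro, and in vivo 0.64 to 1.04. The median range over these 14 genes was 0.43 in vitro and 0.39 in vivo, and over all 4575 such genes it was 0.48 and 0.28. The single probe set that was 2-fold different in vitro was 1 of the 4 of Hmmr, at 1.11. Over the 39 members the in vitro difference had a rank correlation of 0.30 with the genomic span of the gene (RefSeq, introns included), and over 10902 genes analysed 0.26, which is given with the uneven 3' signal of the in vitro pair. The in vivo values were -0.18 and -0.04. The part of RNA quality in the in vitro differences was not tested.

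**Figure D4:**
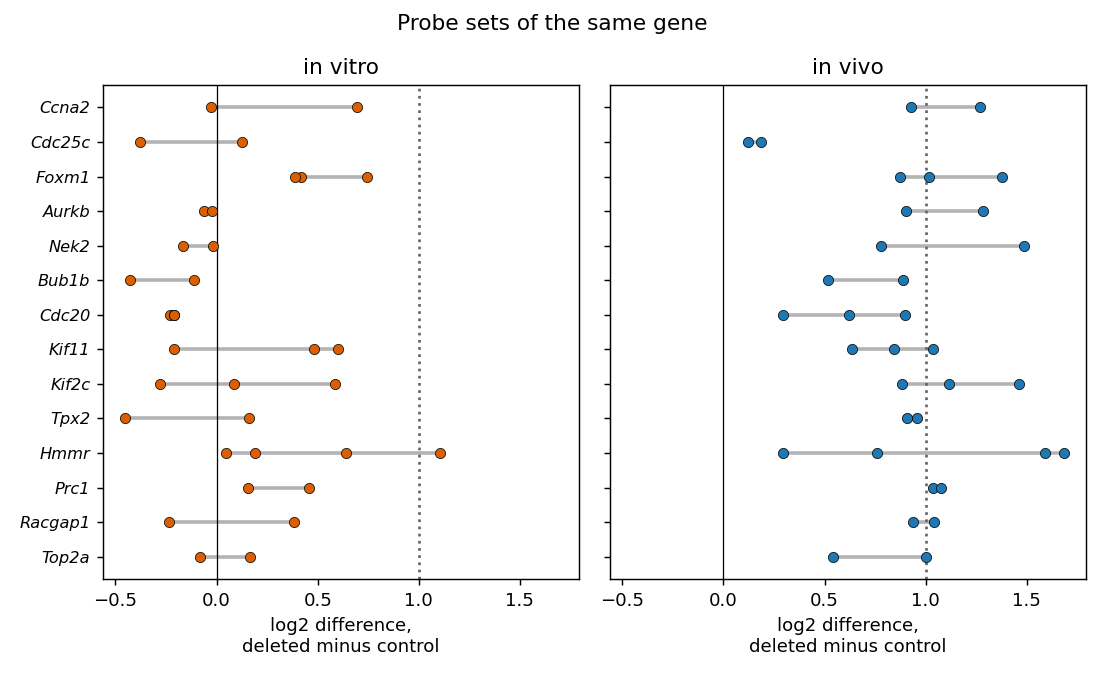
Each point is 1 probe set above the level cutoff, for the 14 member genes with more than 1, with its log2 difference in vitro on the left and in vivo on the right. Grey bars join the probe sets of a gene. In vivo every point lies right of 0, and in vitro 7 genes have points on both sides of 0.

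Further mitosis genes and S phase genes were also higher in vivo and divided in vitro, and this contrast was not tested. Of 67 further mitosis genes analysed, 67 were higher in vivo (median 0.79), 17 of them at least 2-fold, and 34 were higher in vitro (median 0.04). Lmnb1, encoding lamin B1, was at 1.92 in vivo, Cep55, a scaffold of abscission, at 1.47, the AAA ATPase Trip13 at 1.40 and Cdca5, encoding the cohesin protector sororin, at 1.36. Of 46 DNA replication and S phase genes 46 were higher in vivo (median 0.83) and 18 at least 2-fold. Over all genes analysed, 46.4% were higher in vivo and 2.81% at least 2-fold higher. The S phase list was led by Mcm10 (1.49), Rrm2 (1.47), the licensing factor Cdc6 (1.44) and Pola1 (1.44). Rrm2 encodes a ribonucleotide reductase subunit and Pola1 the catalytic subunit of DNA polymerase alpha. In vitro 26 of the 46 were higher, with a median of 0.04, where 42.5% of all genes analysed were higher.

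Regulators of these genes were mixed. Of 19 E2F, DREAM and MuvB genes 15 were higher in vivo (median 0.29) and 12 in vitro (median 0.25). Over all genes analysed, 46.4% were higher in vivo and 42.5% in vitro. Mybl2, encoding the mitotic activator B-MYB, read 7.43 in the deleted and 5.74 in the control sample in vivo, and 5.78 and 5.53 in vitro. The atypical repressors E2f7 (1.202) and E2f8 (1.02), themselves induced in S phase, and the pocket protein gene Rbl1 (1.16) were also 2-fold higher in vivo. Rbl1 was 2-fold higher in vitro as well (1.09), unlike the brightest probe set of any mitosis member. Among 14 G1 cyclins, CDKs and CDK inhibitors 10 were lower in vivo (median -0.25), against 53.6% of genes analysed. In vitro 9 of the 14 were higher (median 0.04), against 42.5%. Cdkn1c, which encodes the inhibitor p57, read 7.05 in the deleted and 9.51 in the control sample in vivo, a log2 difference of -2.46. Cdkn2b, encoding p15, was at -1.02 and the p53 target Ccng1 at -0.83, while Ccnd1, encoding cyclin D1, was at 1.40.

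Markers of 2 other cell types were higher on the same array as the mitosis genes. Of 16 keratinocyte markers 15 had a probe set, and 9 of the 15 were at least 2-fold higher in the deleted in vivo sample, with no filter on level. Of the 11 that passed the filter, 8 were at least 2-fold higher, against 2.81% of genes analysed. Among these 8, 2 (Dsp and Lamb3) lay below the cutoff in the mean of the other 3 arrays. Over all 15 the summed linear signal was 7049 in the deleted and 894 in the control sample in vivo, and 1056 and 1534 in vitro. Krt6a, a keratin of activated epidermis, read 10.97 against 5.67 in vivo, and Krt14, of basal epidermis, 10.94 against 5.93. Krt5, also of basal epidermis, read 10.28 against 6.04. Dsp, encoding the desmosome protein desmoplakin, read 7.98 against 3.23, and as the control value lies far below the cutoff no fold is given. The rest of the 11 that passed the filter did not rise in this way: Epcam was at 0.07 in vivo, Lor at -0.22 and Krt10 at -0.33. Trp63, the regulator of basal keratinocytes, read 5.19 and 5.64 (deleted, control), on either side of the cutoff. Krt1 and Krt15 read below the cutoff or within 0.1 of it on every array.

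Skeletal muscle markers had a probe set for 16 of 16 genes, and 11 of the 16 were at least 2-fold higher in vivo, with no filter on level. Of the 10 that passed the filter, 9 were at least 2-fold higher, against 2.81% of genes analysed. Among these 9, 4 (Myh3, Tnnc2, Chrna1 and Tnnt3) lay below the cutoff in the mean of the other 3 arrays. Over all 16 the summed signal was 3871 in the deleted and 941 in the control sample in vivo, and 552 and 650 in vitro. Actc1, a cardiac and fetal muscle actin, was at 2.99, the myosin light chain gene Mylpf at 2.49, the fast troponin gene Tnnc2 at 2.37 and the embryonic myosin gene Myh3 at 2.35. The myogenic regulator Myog read 6.997 against 4.88 in vivo, while Myod1, Myf5 and Pax7 lay below the cutoff on all 4 arrays. The 12 fibroblast markers summed to 64497 in the deleted and 68444 in the control sample in vivo, a sum in which the brightest genes weigh most. By gene, 9 of the 12 were lower in vivo and 2 at least 2-fold lower, against 53.6% and 3.81% of genes analysed. The lowest differences were those of Dpt (-1.30), Lum (-1.06), Fbln1 (-0.65) and Pdgfra (-0.59). In vitro 9 of the 12 were higher. Macrophage markers summed to 445 and 551 in vivo, and endothelial markers to 255 and 240, with 4 of 8 and 2 of 8 analysed. The genes analysed were Csf1r (0.21), Cd68 (0.05), Cd14 (-0.08) and Lyz2 (-1.06) for macrophages, and Kdr (0.23) and Tek (-0.71) for endothelium. The part of keratinocytes, muscle cells or other cell types in the higher mitosis values was not tested.

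**Figure D5:**
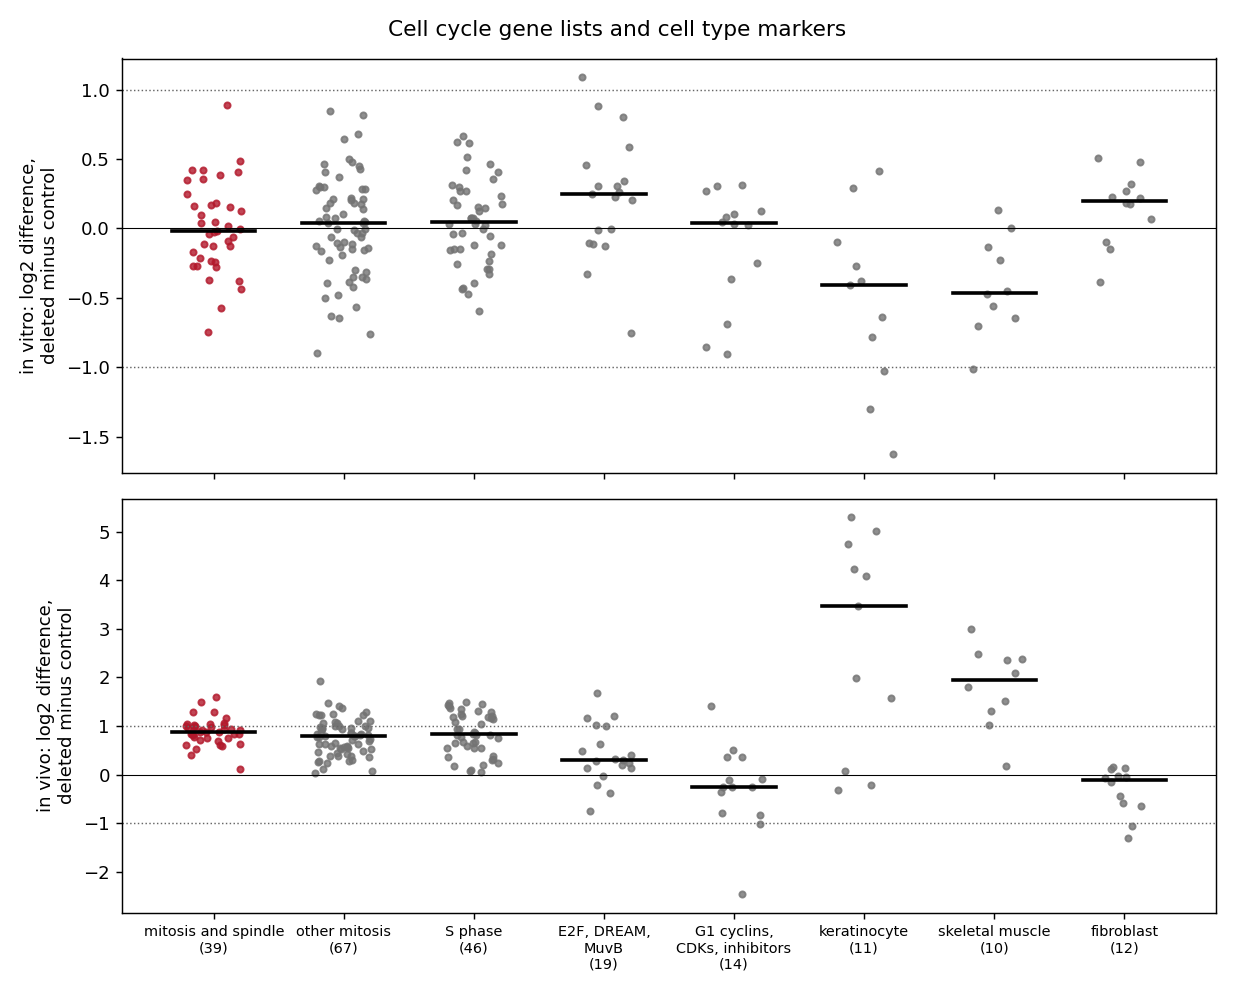
Each point is 1 gene analysed, placed by its log2 difference (deleted minus control) in vitro (upper panel) and in vivo (lower panel, on a wider scale). Black bars are list medians, numbers in parentheses are genes analysed, and dotted lines mark 2-fold. The mitosis, further mitosis and S phase lists have medians of 0.88, 0.79 and 0.83 in vivo and lie around 0 in vitro.

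The deletion effect common to both systems was fitted over all 10916 genes with limma and system as a covariate, the one test that the 4 arrays allow. It left 1 residual degree of freedom per gene, and 0 genes passed an adjusted p of 0.05 (0% of genes analysed), so no member passed. The smallest adjusted p over members was 0.679. At an unadjusted p of 0.05 stood 759 genes (6.95%) and 6 of the 39 members, all higher: Kif18b, Kif11, Foxm1, Ect2, Racgap1 and Mad2l1. Kif18b had a common log2 difference of 0.88 ± 0.20 (SE), an unadjusted limma p of 0.00802 and an adjusted p of 0.679. This coefficient is the mean of the in vivo and in vitro differences, and the in vivo value was the larger of the pair in 38 of 39 members. Its median was 0.43 over members and -0.05 over all genes analysed. A p that misses the threshold with this design does not show that the genes were alike in deleted and control cells.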

How the data were processed

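Poly(A) RNA was copied from a T7 oligo(dT) primer and labelled as biotinylated antisense cRNA, per the labels' protocols, which favours signal near the 3' end. The authors deposited log2 expression values of 45101 probe sets (2.87 to 13.79, 0 missing). The log2 scale was read from that range; software, background correction and normalization are not given in the sources used here. Medians and upper quartiles differed between arrays, so the 4 columns were quantile normalized. Of 35890 annotated probe sets 34958 had 1 symbol and 932 several (not named), and a further 9211 were unlisted. Of the 34958 probe sets with 1 symbol, 34754 matched a RefSeq gene (GRCm38.p6). The 64 array controls entered no gene value.

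A gene took its probe set with the highest mean, and genes at or above the 40th percentile of that mean (5.28) were analysed. The difference is deleted minus control, and 2-fold was the call. Limma 3.58.1 (R 4.3.3) fitted the common effect with Benjamini-Hochberg adjustment, tested on simulated data. The members and lists were chosen with earlier results of these data known. Named genes are the members, Rbpj, control genes and, per list, the 4 with the largest in vivo difference. Col1a1, Epcam, Lor, Krt10, Trp63, Krt1, Krt15, Myog, Myod1, Myf5, Pax7, Lamb3, Chrna1 and Tnnt3 were named after their values were seen. Groups came from the sample titles. Alternatives covered normalization, centring, an added constant, level filters, probe set choice, thresholds and model terms.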

Additional observations from a re-analysis of the deposited data

Results flagged for a closer look

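Cenpa was at least 1.5-fold different in opposite directions in the 2 systems. Its log2 difference, deleted minus control, was 0.93 in vivo and -0.74 in vitro. The difference between systems was not tested, because each group has 1 array. Its other probe sets lay below the level cutoff and read 0.07 and 0.05 in vivo and -0.08 and -0.09 in vitro.

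The probe set annotated to Tex52, Pebp1 and Foxm1 together, and used in no comparison, was also higher in the deleted in vivo sample, at 8.84 against 7.96 (0.88) in vivo and 7.37 against 7.12 in vitro. Which of the 3 genes gave this signal was not tested.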

How the results depend on the processing

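The in vivo median of the members ranged from 0.86 to 0.92 over 10 alternatives, and every member measured under an alternative was higher. The in vitro median ranged from -0.02 to 0.07, and its sign followed the setting. The number of members at least 2-fold higher in vivo was 12, and 6 with a constant of 15.4 (the 20th percentile, linear scale) added first, 35 at 1.5-fold and 1 at 3-fold. It was 8 with the median of a gene's probe sets (37 members) or the filter at the 60th percentile (32 members), and 11 to 14 under the other normalizations, centring and without the cross-hybridizing classes (suffixes _x_at, _s_at). In vitro, 1.5-fold gave 1 member higher (Kif18b) and 1 lower (Cenpa), against 0 and 0 at 2-fold. Counting the 59 member probe sets above the cutoff, chosen after seeing the data, gave 59 higher and 20 at least 2-fold higher in vivo, and 29 higher and 1 at least 2-fold higher in vitro. The cause of these shifts was not tested beyond the settings' own construction. No single-gene difference of 2-fold changed sign. Limma called 0 genes under all 7 alternatives, with 131 to 1230 genes at an unadjusted p of 0.05 and 0 to 8 members among them; without the system term no member was among them. Each deleted array was paired with its control through the system term. No further paired analysis was possible because each group has 1 array and no replicate numbers, and no array could be left out with a test remaining. Dim probe sets lie near background, where a difference can be understated, and the part of this in their values was not tested.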
